A study of Sus scrofa with 16 samples.

Results

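The genes described here are 8 components of the MHC class I antigen processing pathway: B2M, TAP1, TAP2, TAPBP, PSMB8, PSMB9, PSMB10 and NLRC5. They were taken by symbol, without regard to their values, from a table of 29552 named genes of the pig. All 8 were found. Of these, 7 passed the filter on low counts and were tested among 14530 genes; NLRC5 did not pass it and is described from its counts.

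MHC class I molecules display peptides from inside the cell to cytotoxic T cells. Proteasomes cut the peptides, and the immunoproteasome subunits encoded by PSMB8, PSMB9 and PSMB10 take the place of the constitutive catalytic subunits encoded by PSMB5, PSMB6 and PSMB7. TAP1 and TAP2 form the transporter that carries peptides into the endoplasmic reticulum, where TAPBP (tapasin) holds empty class I molecules next to the transporter while they are loaded. B2M, beta-2 microglobulin, is the light chain of every class I molecule, and the SLA genes encode the heavy chains of the pig. In human and mouse cells NLRC5 acts in the nucleus as an activator of class I genes, and interferons and NF-kB raise many genes of the pathway.

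The cells were interstitial cells of the aortic valve, which maintain the matrix of the leaflets, from pigs aged 5 to 6 months. The 4 groups were female cells on tissue culture plastic, female cells on gel, male cells on plastic and male cells on gel, with 4 libraries each. The plastic cultures are described by the submitters as myofibroblasts and the gel cultures as quiescent fibroblasts; the gel was a PEG-norbornene hydrogel with an elastic modulus of about 5.8 kPa. All cells were kept for 48 hours in Media 199 with 1% fetal bovine serum, penicillin, streptomycin and amphotericin B, and no interferon or cytokine is named in the labels. The series asks how surface and sex bear on these cells, so each gene was compared between plastic and gel within each sex and between the sexes on each surface.

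Total counts per library ran from 16.93 to 27.48 M, and 15476 to 18453 genes had a count. Levels are counts per M (CPM) after TMM scaling, a correction for library composition. Markers of valve interstitial cells were abundant in every library, with summed levels of 44300 to 51600 CPM in female plastic, 40800 to 49900 CPM in female gel, 48300 to 55000 CPM in male plastic and 42600 to 47800 CPM in male gel libraries. Of these 10 markers, 4 fell on plastic in each sex with the class I genes, namely PDGFRA, LUM, DCN and POSTN, at log2 changes of -2.38, -1.42, -1.41 and -2.27 in female and -2.44, -1.62, -1.33 and -2.36 in male cells. COL3A1 rose, by 0.53 and 0.48. In male cells COL1A1 and THY1 rose by 0.45 and 0.76, narrowly under the threshold (edgeR, adjusted p = 0.0482 and 0.0464) and with overlap between the groups. Among all tested genes, 11.3% fell and 12.7% rose on plastic in female cells, and 12.9% fell and 12.9% rose in male cells. The part of these markers in the class I changes was not tested. Male gel 2 was the shallowest library, and it and female plastic 4 lay low among the class I genes of their groups, as given below. Calls gained by leaving out these 2 libraries thus rest in part on the levels under test and are no added support. Both surfaces of male 4, female 1 and female 4 had endothelial marker sums of 523 to 926 CPM, against 335 to 484 CPM in the other 10 libraries. Calls that change without male gel 2 and female plastic 4, or without both surfaces of male 4, female 1 and female 4, are given both ways. The calls of cell type markers were not checked in this way.

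Most class I processing genes were lower on plastic than on gel. Of the 7 tested, 6 fell on plastic in female cells and 5 in male cells, and 0 rose in either sex. B2M, TAPBP, PSMB8, PSMB9 and PSMB10 fell in both sexes. The falls were deepest for PSMB9 and PSMB10, at 2.56 to 4.14-fold, and shallower for B2M and TAPBP, at 1.49 to 1.67-fold. TAP1 was not called in either sex. Over all tested genes, edgeR's quasi-likelihood test at an adjusted p under 0.05 called 11.3% lower on plastic in female cells, 12.9% in male cells and 7.27% in both; 12.7% and 12.9% were called higher in female and male cells. For each of the called class I processing genes, all plastic libraries of a sex lay below all its gel libraries. The groups overlapped for TAP1 in both sexes and TAP2 in male cells, which were not called. Over all tested genes, called or not, 14% were lower on plastic without overlap in each sex. A call and a lack of overlap rest on the same values, so the second adds no separate support. The median log2 change of the 7 genes was -0.74 in female cells, where that of all tested genes was -0.04, and -0.70 in male cells, where it was -0.03. In bulk RNA, fewer cells that express a gene and less of its RNA per cell cannot be told apart.

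**Figure D1:**
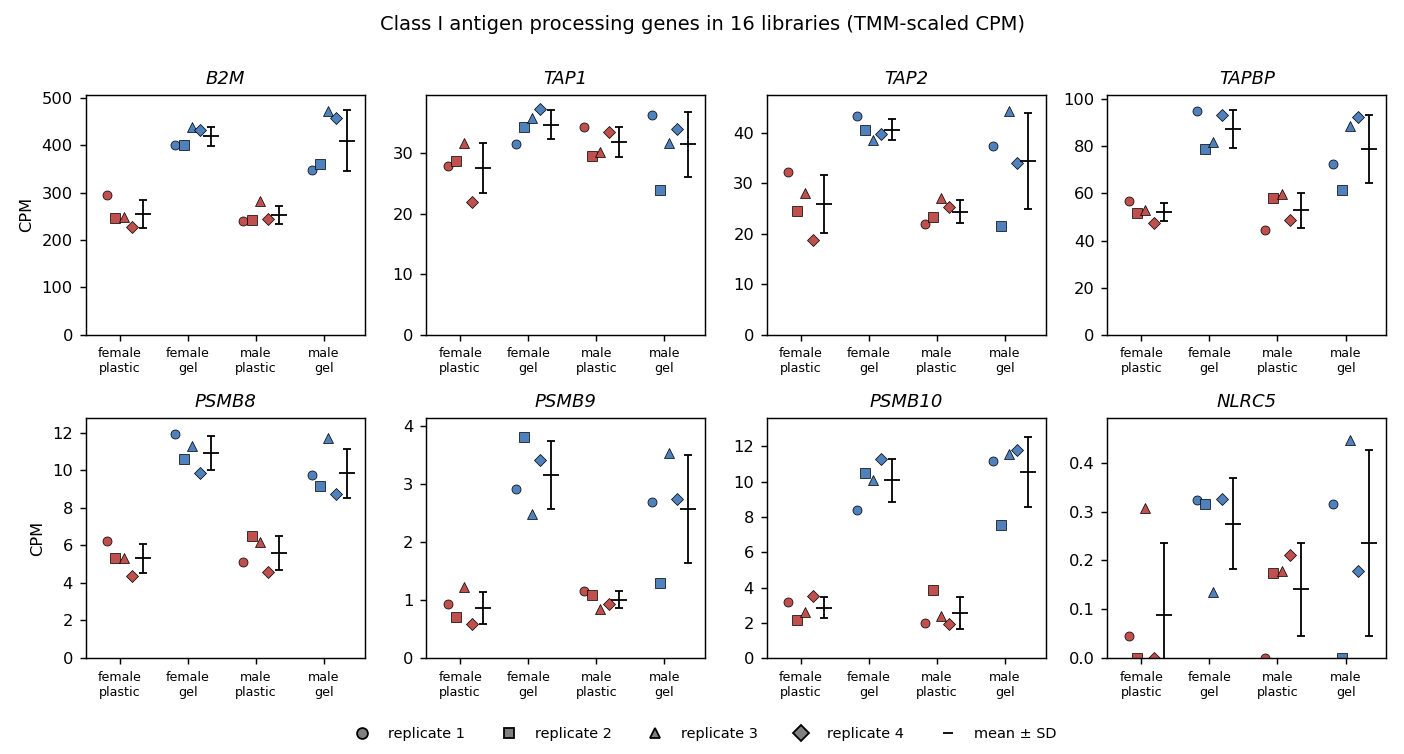
Level of each class I processing gene in TMM-scaled CPM (vertical axes, from 0) in the 16 libraries, by sex and surface. Each symbol is a replicate number, and the bar to the right of each group is the mean ± SD of 4 libraries, cut off at 0 for NLRC5. In both sexes the plastic libraries of B2M, TAPBP, PSMB8, PSMB9 and PSMB10 lie below all gel libraries, whereas those of TAP1 overlap.

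B2M, the light chain shared by all class I molecules, was the most heavily counted of the 8 genes. Its level was 296, 247, 249 and 228 CPM in female plastic 1 to 4, against 401, 402, 440 and 433 CPM in female gel 1 to 4. Every plastic library was below every gel library. The log2 change on plastic was -0.72 (SE 0.11, adjusted p = 0.0002, n = 4 per group). In male cells B2M had 241, 243, 282 and 245 CPM on plastic and 348, 361, 473 and 459 CPM on gel. The groups again did not overlap, and the log2 change was -0.70 (SE 0.11, adjusted p = 0.00024). RefSeq places 2 loci named B2M on chromosome 1 of Sscrofa11.1, at 126837721 to 126844043 and at 126865767 to 126878501. The count table has 1 entry for the symbol, so the loci cannot be told apart, nor can reads that fit both.

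The heavy chains fell with the light chain. All 6 listed SLA genes fell on plastic in female cells and 4 of 6 fell in male cells, with median log2 changes of -0.79 and -0.68. The share of all tested genes that fell was 11.3% in female and 12.9% in male cells. Their median log2 changes were -0.04 and -0.03. SLA-1, a classical heavy chain, had 73 to 168 CPM in female plastic and 182 to 257 CPM in female gel libraries, and 94.1 to 129 CPM in male plastic and 168 to 247 CPM in male gel libraries. Its log2 changes were -0.77 (SE 0.20, adjusted p = 0.0113) in female and -0.76 (SE 0.20, adjusted p = 0.0118) in male cells. SLA-3, also classical, changed by -0.84 (SE 0.15, adjusted p = 0.000531) in female and -0.88 (SE 0.15, adjusted p = 0.000337) in male cells. SLA-7, a non-classical heavy chain, changed by -0.80 (SE 0.11, adjusted p = 6.54e-05) and -0.78 (SE 0.11, adjusted p = 7.65e-05).

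SLA-2 and SLA-6 passed the test in female cells but not in male cells. SLA-2, the other classical heavy chain, changed by -0.83 (SE 0.23, adjusted p = 0.0156) in female cells. In male cells its change was -0.61 (SE 0.23, adjusted p = 0.0648), and the groups overlapped, at 97.6 to 177 CPM on plastic and 132 to 269 CPM on gel. With the replicate number as a block the male change was called (-0.60, adjusted p = 0.00382), without male gel 2 (-0.76, adjusted p = 0.0217; 0.00793 with female plastic 4 also left out) and without male plastic 3 (-0.79, adjusted p = 0.0287). SLA-6, with overlap between the groups, changed by -0.65 (adjusted p = 0.0131) in female and -0.26 (adjusted p = 0.294) in male cells, where it was called when male gel 2 and female plastic 4 were left out (-0.42, adjusted p = 0.0422). SLA-8 changed by -0.70 (SE 0.15, adjusted p = 0.002) in female and -0.47 (SE 0.15, adjusted p = 0.0252) in male cells, and the male call was lost without male gel 1, male gel 3, male plastic 3 or male plastic 4 (adjusted p = 0.0896, 0.0546, 0.0707 and 0.0794) and in a fit of the male libraries alone (0.0816). Without both surfaces of male 4, female 1 and female 4, the female calls of SLA-2, SLA-6 and SLA-8 were lost (adjusted p = 0.165, 0.439 and 0.0782), as was the male call of SLA-8 (adjusted p = 0.131). The SLA genes are close paralogs, and on chromosome 7 the annotated spans of SLA-1 (22824137 to 22920154), SLA-2 (22916747 to 22959405) and SLA-3 (22938211 to 22942735) overlap, so the split of reads between them is uncertain.

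The peptide transporter genes gave the smallest changes among the 7 in each sex. TAP2 fell on plastic in female cells, and TAP1 did not pass the test in either sex. The genes lie close together in the class II region of chromosome 7, with TAP2 at 25045085 to 25056915 and TAP1 at 25062772 to 25071989. TAP1 had 27.9, 28.7, 31.7 and 21.9 CPM in female plastic 1 to 4, against 31.6, 34.3, 35.8 and 37.4 CPM in female gel 1 to 4. All 4 plastic libraries were below their gel partners of the same number, but the groups overlapped narrowly, and the log2 change was -0.34 (SE 0.13, adjusted p = 0.0745). It passed the threshold when male gel 2 and female plastic 4 were left out (-0.24, SE 0.09, adjusted p = 0.0473). The change was then smaller, and the call came with the smaller SE. In male cells TAP1 had 34.4, 29.5, 30.2 and 33.6 CPM on plastic and 36.3, 23.9, 31.7 and 34.1 CPM on gel. The plastic libraries lay inside the range of the gel libraries, with a log2 change of 0.02 (SE 0.13, 95% interval -0.27 to 0.30, adjusted p = 0.94), whose sign turned without some of the libraries.

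TAP2 had 32.2, 24.6, 28 and 18.7 CPM in female plastic 1 to 4, against 43.4, 40.6, 38.6 and 39.7 CPM in female gel 1 to 4. The groups did not overlap, and the log2 change was -0.65 (SE 0.18, adjusted p = 0.0158). Without female plastic 4, the lowest library, it was -0.52 (adjusted p = 0.0519), and without both surfaces of male 4, female 1 and female 4 it was -0.57 (adjusted p = 0.21). Male cells had 21.9, 23.3, 27.1 and 25.3 CPM of TAP2 on plastic and 37.4, 21.6, 44.4 and 34.1 CPM on gel. Male gel 2 lay below all male plastic libraries while the other 3 gel libraries lay above them. The male log2 change was -0.50 (SE 0.18, adjusted p = 0.0547). It was called with the replicate number as a block (-0.46, adjusted p = 0.0409), by DESeq2 (-0.48, adjusted p = 0.0408) and without male gel 2 (-0.66, adjusted p = 0.00344).

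TAPBP, the tapasin gene at 29663491 to 29673453 on chromosome 7, fell in both sexes. Its level was 56.9, 51.5, 53.1 and 47.5 CPM in female plastic 1 to 4, against 95.1, 79, 81.8 and 93.4 CPM in female gel 1 to 4, a log2 change of -0.74 (SE 0.13, adjusted p = 0.00055). Male cells had 44.6, 58, 59.9 and 48.6 CPM on plastic and 72.5, 61.5, 88.8 and 92.3 CPM on gel, a log2 change of -0.58 (SE 0.13, adjusted p = 0.00363). Neither pair of groups overlapped, though male gel 2 was only just above the highest male plastic library. Without both surfaces of male 4, female 1 and female 4 the changes were -0.61 in female cells (adjusted p = 0.056) and -0.44 in male cells (adjusted p = 0.0606). TAPBP overlaps ZBTB22 at its end, and ZBTB22 had 3391 counts in all 16 libraries, against 4716 to 9631 for TAPBP in each group of 4 libraries.

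Outside the 8 genes, 4 of 12 tested genes of peptide loading and quality control in the endoplasmic reticulum fell on plastic in each sex, and 0 rose. Over all tested genes, 11.3% in female and 12.9% in male cells fell. The largest change was in a trimming enzyme: ERAP2, an aminopeptidase that shortens peptides to class I length, averaged 2.44 ± 0.397 CPM in female plastic and 9.26 ± 1.09 CPM in female gel libraries (SD, n = 4). In male cells it averaged 2.24 ± 0.385 CPM on plastic and 11 ± 2.87 CPM on gel. The log2 changes were -1.92 (SE 0.20, adjusted p = 4.52e-06) in female and -2.30 (SE 0.20, adjusted p = 8.37e-07) in male cells. Its relative ERAP1 changed by -0.86 (SE 0.17, adjusted p = 0.00116) and -1.15 (SE 0.17, adjusted p = 9.69e-05). TAPBPL, a tapasin-related peptide editor, changed by -1.07 (SE 0.12, adjusted p = 1.24e-05) and -1.12 (SE 0.12, adjusted p = 8.08e-06). The median log2 change of the 12 genes was -0.14 in female and -0.20 in male cells. Of 8 cytosolic peptidases, which act on peptides before transport, only BLMH was called, in female cells (-0.34, SE 0.10, adjusted p = 0.0246), and that call was lost without female gel 1, female gel 3 or female plastic 4 (adjusted p = 0.067, 0.0795 and 0.0774) and without both surfaces of male 4, female 1 and female 4 (0.122). In male cells BLMH had -0.25 (adjusted p = 0.0838; 0.0375 with the replicate number as a block).

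**Figure D2:**
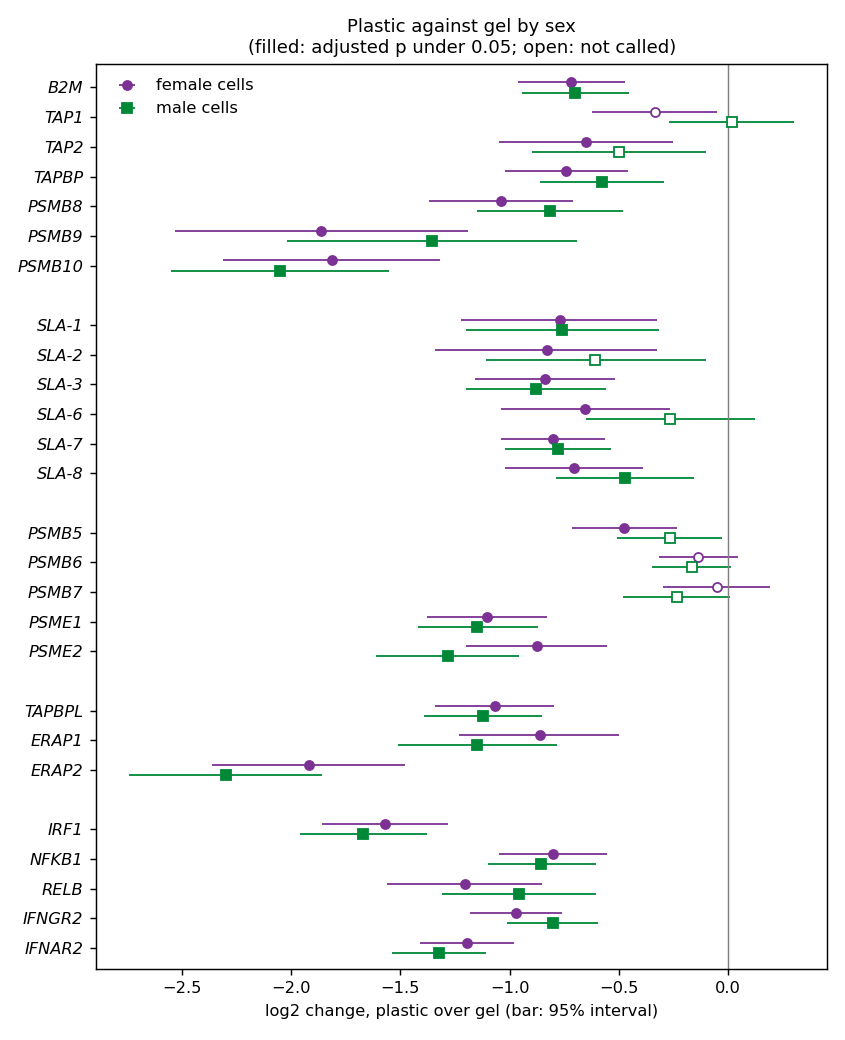
Log2 change of plastic over gel (horizontal axis) for the tested class I processing genes and genes of the same pathway, in female cells (purple circles) and male cells (green squares), with 95% intervals of the edgeR fit. Filled symbols had an adjusted p under 0.05. Most changes lie below 0, with the deepest at PSMB9, PSMB10, ERAP2 and IRF1, while PSMB6 and PSMB7 in both sexes and TAP1 in male cells lie between -0.23 and 0.02.

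Among the 7 tested genes, the immunoproteasome subunits showed the deepest falls in both sexes. PSMB8, the inducible chymotrypsin-like subunit, lies between TAP2 and TAP1 at 25058456 to 25061666 on chromosome 7. It had 6.22, 5.33, 5.32 and 4.34 CPM in female plastic 1 to 4, against 11.9, 10.6, 11.3 and 9.86 CPM in female gel 1 to 4. In male cells it had 5.13, 6.52, 6.17 and 4.56 CPM on plastic and 9.75, 9.15, 11.7 and 8.75 CPM on gel. No plastic library reached the lowest gel library of its sex. The log2 changes were -1.04 (SE 0.15, adjusted p = 0.000113) in female and -0.81 (SE 0.15, adjusted p = 0.000866) in male cells, a level 2.06-fold lower on plastic in female and 1.76-fold lower in male cells.

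PSMB9, the inducible partner of PSMB6, starts 143 bases beyond the end of TAP1, at 25072133 to 25077508. In human cells TAP1 and PSMB9 are read in opposite directions from a shared promoter. PSMB9 was the least counted of the 7 tested genes, with 78 counts in the female plastic, 345 in the female gel, 90 in the male plastic and 256 in the male gel libraries together. Female plastic 1 to 4 had 0.933, 0.701, 1.23 and 0.591 CPM, against 2.92, 3.82, 2.48 and 3.41 CPM in female gel 1 to 4. Male plastic 1 to 4 had 1.16, 1.09, 0.843 and 0.93 CPM, against 2.7, 1.3, 3.54 and 2.74 CPM in male gel 1 to 4. The groups did not overlap in either sex, with male gel 2 closest to the plastic libraries. The log2 changes were -1.86 (SE 0.31, adjusted p = 0.000327) in female and -1.36 (SE 0.31, adjusted p = 0.00363) in male cells.

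PSMB10, the inducible partner of PSMB7, lies apart from the others on chromosome 6, at 28544910 to 28547609. Its level was 3.2, 2.15, 2.6 and 3.5 CPM in female plastic 1 to 4, against 8.4, 10.5, 10.1 and 11.3 CPM in female gel 1 to 4. Male cells had 1.98, 3.85, 2.4 and 1.94 CPM on plastic and 11.2, 7.57, 11.6 and 11.8 CPM on gel. Even male gel 2, the lowest gel library, lay above male plastic 2, the highest plastic library. The log2 changes were -1.81 (SE 0.23, adjusted p = 2.74e-05) in female and -2.05 (SE 0.23, adjusted p = 8.93e-06) in male cells, or 3.51 and 4.14-fold lower on plastic.

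The constitutive counterparts moved less. PSMB5 fell in female cells (-0.48, SE 0.11, adjusted p = 0.00471; 0.0788 without both surfaces of male 4, female 1 and female 4). In male cells it had -0.27 (adjusted p = 0.0868; 0.0458 without male gel 2, and 0.00309 without male gel 2 and female plastic 4). PSMB6 had -0.14 (adjusted p = 0.256) in female and -0.17 (adjusted p = 0.156) in male cells, and PSMB7 had -0.05 (adjusted p = 0.776) and -0.23 (adjusted p = 0.138). To compare each inducible subunit with the constitutive subunit it replaces, the ratio of their counts was taken within each library, which frees it from the scaling of libraries. Counts were not corrected for transcript length, so the ratios compare libraries with each other and do not give the make-up of proteasomes.

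For each 100 counts of PSMB7 there were 5.03, 3.91, 4.6 and 5.49 counts of PSMB10 in female plastic 1 to 4, against 15, 17, 14.4 and 18.8 in female gel 1 to 4. Male plastic 1 to 4 had 3.32, 6.91, 4.27 and 4.17, against 18.5, 9.63, 19.3 and 20.4 in male gel 1 to 4. The ratio was 3.42-fold lower on plastic in female and 3.6-fold lower in male cells. For each 100 counts of PSMB6 there were 2.02, 1.72, 2.66 and 1.38 counts of PSMB9 in female plastic 1 to 4, against 6.73, 7.67, 4.83 and 6.95 in female gel 1 to 4. Male plastic 1 to 4 had 2.67, 2.54, 1.84 and 2.36, against 5.99, 2.72, 7.02 and 5.57 in male gel 1 to 4. This ratio was 3.34-fold lower on plastic in female and 2.13-fold lower in male cells, with male gel 2 just above the highest male plastic library.

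PSMB8 changed least against its partner. For each 100 counts of PSMB5 there were 14.3, 13.3, 13.5 and 15 counts of PSMB8 in female plastic 1 to 4, against 23, 21.4, 20.2 and 18.1 in female gel 1 to 4, and 13, 16.3, 15.3 and 12.1 in male plastic 1 to 4, against 21.6, 21.7, 22.7 and 17.3 in male gel 1 to 4. The ratio was 1.47-fold lower on plastic in each sex. In all 6 comparisons of 3 ratios and 2 sexes, the groups did not overlap and the ratio was lower on plastic in 4 of 4 pairs of the same replicate number. The two-sided exact permutation test gave p = 0.0286 for each (adjusted p = 0.0286 over the 6), the smallest value that 4 against 4 libraries allow. With the replicate numbers as pairs the calls were lost, since exact sign flips of 4 pairs cannot go below p = 0.125.

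**Figure D3:**
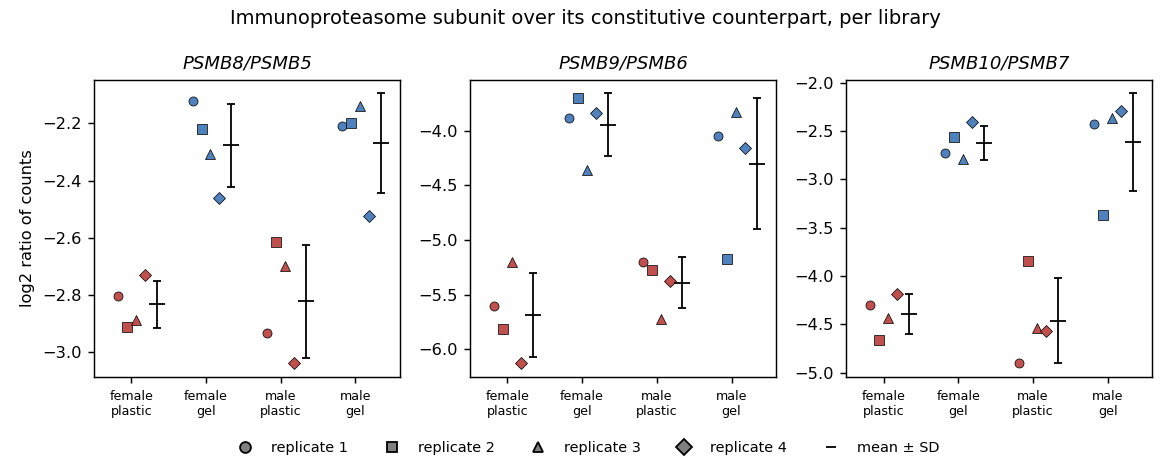
Log2 ratio of the counts of each immunoproteasome subunit to those of its constitutive counterpart (vertical axes, log2 scale not starting at 0) in the 16 libraries, by sex and surface. Symbols are replicate numbers, and bars give the mean ± SD of 4 libraries. In every panel the plastic libraries of a sex lie below its gel libraries, and male gel 2 is the lowest gel library for PSMB9/PSMB6 and PSMB10/PSMB7.

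The proteasome activator fell on plastic as well. PSME1 and PSME2, which form the PA28 cap that opens the proteasome, changed by -1.10 (SE 0.13, adjusted p = 1.18e-05) and -0.88 (SE 0.15, adjusted p = 0.000378) in female cells and by -1.15 (SE 0.13, adjusted p = 8.08e-06) and -1.28 (SE 0.15, adjusted p = 1.27e-05) in male cells. PSME1 had 32.2 to 36 CPM in female plastic and 68.2 to 80 CPM in female gel libraries, and 30.1 to 35.7 CPM in male plastic and 59.6 to 99.2 CPM in male gel libraries. Among the 10 constitutive and activator genes, 4 fell in female and 2 in male cells and 0 rose, with medians of -0.15 and -0.20. Over all tested genes, 11.3% in female and 12.9% in male cells fell.

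NLRC5, on chromosome 6 at 18933179 to 19036288, was at or near the limit of detection. Its 4 libraries together held 8 counts in female plastic, 30 in female gel, 13 in male plastic and 25 in male gel. Female plastic 1 to 4 had 0.0444, 0, 0.308 and 0 CPM, against 0.324, 0.315, 0.136 and 0.326 CPM in female gel 1 to 4. Male plastic 1 to 4 had 0, 0.175, 0.178 and 0.211 CPM, against 0.316, 0, 0.447 and 0.179 CPM in male gel 1 to 4. A level of 3 counts, the floor used here, corresponds to 0.102 to 0.169 CPM, so a count of 0 allows a level of up to that size, for counting error only. The groups overlapped in both sexes. The difference of the means, plastic minus gel, was -0.187 CPM in female cells (two-sided exact permutation p = 0.0571) and -0.0945 CPM in male cells (two-sided exact permutation p = 0.4), so no difference was detectable at this depth. In a fit of all 22139 genes with a count, edgeR gave log2 changes of -1.59 (SE 1.01, adjusted p = 0.359) in female and -0.75 (SE 0.97, adjusted p = 0.677) in male cells.

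Many regulators of the pathway other than NLRC5 were lower on plastic. Of 30 listed genes of class I transcription and interferon signalling, 27 passed the filter on low counts and were tested. Among the 27, 12 fell and 0 rose in female cells, and 14 fell and 1 rose in male cells, with median log2 changes of -0.40 and -0.38. Over all tested genes, 11.3% in female and 12.9% in male cells fell. IRF1, a transcription factor that binds the promoters of many class I genes, had 6.96 to 9.19 CPM in female plastic and 21.9 to 25.3 CPM in female gel libraries, and 6.19 to 9.36 CPM in male plastic and 23.4 to 23.8 CPM in male gel libraries. Its log2 changes were -1.57 (SE 0.13, adjusted p = 5.96e-07) in female and -1.67 (SE 0.13, adjusted p = 3.24e-07) in male cells. Male gel 2 was not low for IRF1.

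The receptor chain IFNAR2 of type I interferons changed by -1.20 (SE 0.10, adjusted p = 5.21e-07) in female and -1.32 (SE 0.10, adjusted p = 1.97e-07) in male cells, and IFNGR2, a chain of the interferon-gamma receptor, by -0.97 (SE 0.10, adjusted p = 2.79e-06) and -0.80 (SE 0.10, adjusted p = 1.48e-05). The exception in direction was NFYC, a subunit of the promoter-binding factor NF-Y, with 0.46 (SE 0.15, adjusted p = 0.0288) in male cells and 0.31 (adjusted p = 0.143) in female cells. The male change did not pass when male gel 2 was left out (adjusted p = 0.0626) or when male plastic 3 was (adjusted p = 0.0956), the libraries that lay apart from the rest of their groups. With male gel 2 and female plastic 4 both left out, the female change of NFYC was called (0.34, adjusted p = 0.0497) and the male change was not (0.33, adjusted p = 0.0564). Among interferon genes, IFNB1 and IFNG had 0 counts in all 16 libraries; in each, a count of 0 allows up to the level of 3 counts given above.

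**Figure D4:**
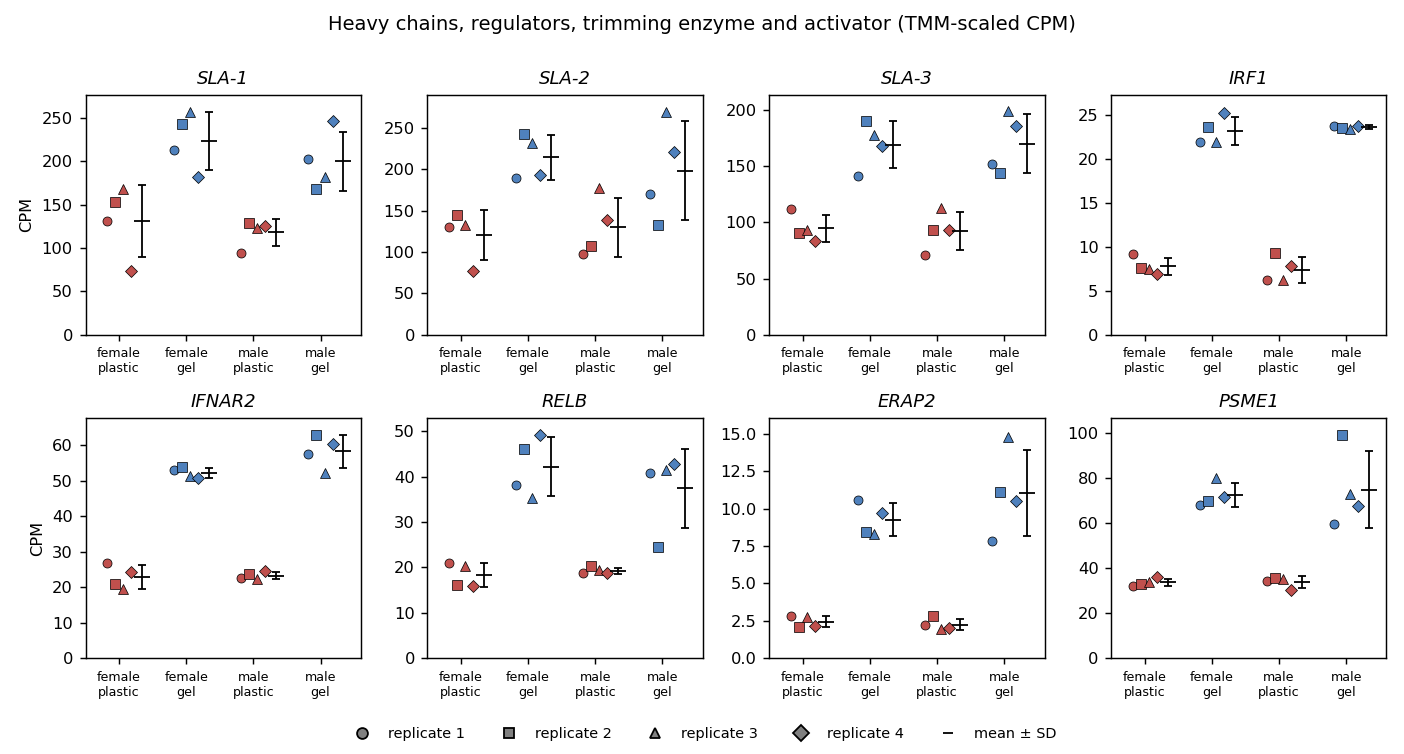
Level in TMM-scaled CPM (vertical axes, from 0) of the classical heavy chains SLA-1, SLA-2 and SLA-3, the regulators IRF1 and RELB, the receptor chain IFNAR2, the trimming enzyme ERAP2 and the proteasome activator subunit PSME1 in the 16 libraries. Symbols are replicate numbers, and bars give the mean ± SD of 4 libraries. IRF1 lies at 6.19 to 9.36 CPM in the plastic libraries and at 21.9 to 25.3 CPM in the gel libraries of both sexes, and SLA-2 overlaps between male plastic and male gel.

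Among interferon-stimulated genes outside antigen processing, 18 were tested. Of these, 7 fell in female and 11 in male cells and 0 rose, with medians of -0.55 and -0.96. Over all tested genes, 11.3% in female and 12.9% in male cells fell. IFIT1, which binds foreign RNA, had log2 changes of -2.56 (SE 0.44, adjusted p = 0.000462) and -2.91 (SE 0.44, adjusted p = 0.000127), at means of 0.222 CPM on plastic and 1.33 CPM on gel in female and 0.248 CPM on plastic and 1.9 CPM on gel in male cells. IFI44L changed by -1.02 (SE 0.16) and -1.02 (SE 0.16), with adjusted p = 0.000158 and 0.000136. The male change of IFIT3, a relative of IFIT1, was -2.98 (SE 0.50, adjusted p = 0.000368), whereas its female change of -1.46 (adjusted p = 0.0375) missed the threshold with the replicate number as a block (adjusted p = 0.0508) and without any 1 of female gel 1, 2 or 4 or female plastic 1, 3 or 4 (0.0559 to 0.102). It was also lost by DESeq2 (0.0515), limma-voom (0.064), with no filter (0.075) and without both surfaces of male 4, female 1 and female 4 (0.3). GBP1, an interferon-induced GTPase, was called in female cells (-1.09, SE 0.33, adjusted p = 0.0234) but not without female gel 2, female gel 3 or female plastic 3 (adjusted p = 0.0588, 0.0682 and 0.0619), nor without both surfaces of male 4, female 1 and female 4 (-1.54, adjusted p = 0.059). In male cells GBP1 had -0.82 (adjusted p = 0.078; 0.0437 without male gel 1).

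Leukocytes carry abundant class I genes, and their markers were low in all groups. Their summed level over 21 genes was 10.7 to 40.7 CPM in female plastic, 15.2 to 19.4 CPM in female gel, 10.1 to 18.8 CPM in male plastic and 9.88 to 17 CPM in male gel libraries. Of the 21, 18 stayed under 1 CPM in every library, 7 had 0 counts throughout, and PTPRC, the pan-leukocyte gene, had 1 count in all. The other 3 were counted in every library, and LAPTM5 and CD14 moved with the surface in opposite directions, at log2 changes of 2.14 and -1.40 in female and 2.35 and -1.21 in male cells. CD83 changed by -1.40 and -1.65. Endothelial marker sums were 378 to 926 CPM in female plastic, 348 to 563 CPM in female gel, 369 to 604 CPM in male plastic and 335 to 557 CPM in male gel libraries. Of 19 tested endothelial markers, 4 rose and 0 fell on plastic in female cells and 3 rose and 0 fell in male cells. Over all tested genes, 12.7% in female and 12.9% in male cells rose. The part of these other cell types in the class I changes was not tested either.

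Sex made no detectable difference to the class I processing genes on either surface. None of the 7 was called between female and male cells on plastic or on gel by edgeR, DESeq2 or limma-voom, and 0 had an unadjusted p under 0.05. On plastic, where 18 of all tested genes (0.124%) were called, the log2 change of female over male lay between -0.22 for PSMB9 and 0.17 for PSMB10 (adjusted p = 0.98 to 0.991). On gel, where 15 of all tested genes (0.103%) were called, it lay between -0.07 for PSMB10 and 0.29 for PSMB9 (adjusted p = 0.852 to 0.953). The 95% intervals of all 7 genes lay within -0.91 and 0.68 on plastic and within -0.54 and 0.91 on gel, with PSMB9 the widest. They were narrower for B2M, at -0.23 to 0.26 on plastic and -0.21 to 0.27 on gel. In each of the 5 genes called in both sexes, the means of the 4 groups therefore fell into a low pair on plastic and a high pair on gel, and neither pair differed within itself beyond its spread. B2M, for example, averaged 255 ± 28.6 CPM in female plastic, 253 ± 19.6 CPM in male plastic, 419 ± 20.6 CPM in female gel and 410 ± 64.7 CPM in male gel libraries (SD, n = 4).

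Nor was a difference between the sexes in the surface change itself called for any of these genes. Female minus male, it ran from -0.50 (SE 0.43) for PSMB9 to 0.24 (SE 0.32) for PSMB10, with 95% intervals between -1.44 and 0.93 and adjusted p = 0.767 to 0.98. For TAP1, with -0.34 in female and 0.02 in male cells, the difference was -0.35 (SE 0.19, adjusted p = 0.767). Among all 14530 genes, edgeR called 0 for this difference, with 633 at an unadjusted p under 0.05, and DESeq2 and limma-voom each called 0. The calls of TAP2, SLA-2 and SLA-6 in female and not in male cells thus do not show a difference between the sexes.

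The libraries of a group differed from each other in a shared way. In male gel 2 all 7 tested genes lay below their group mean, with a mean log2 deviation of -0.42, and in female plastic 4 it was 6 of 7, with -0.21. By contrast, all 7 lay above the group mean in male gel 3, with 0.26, and in female plastic 1, with 0.18. The replicate spread was largest for NLRC5 and, among tested genes, for PSMB9 in male gel (coefficient of variation 36.2%) and PSMB10 in male plastic (35.2%), and smallest for B2M in female gel (4.91%). Leaving out male gel 2 and female plastic 4 together kept every call among the 7 genes and added TAP2 in male and TAP1 in female cells. Since both libraries lay low in these same genes, the added calls are no further support. Without them PSMB9 changed by -1.72 (adjusted p = 0.000185) in female and -1.57 (adjusted p = 0.000245) in male cells, and PSMB10 by -1.92 and -2.18.

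Across the 16 libraries, the mean of the 7 standardised log2 levels was followed most closely by PRDX2, a peroxiredoxin, with Pearson's r = 0.981 among 14523 other tested genes. RELB, an NF-kB subunit, followed with 0.98, then TRIM25, a ubiquitin ligase of antiviral signalling, with 0.975, SMO, the Hedgehog signal transducer, with 0.975, and SDF4, a calcium-binding protein of the Golgi, with 0.974. These correlations over 16 libraries share library, depth and surface with the class I genes and are a description. The 5 genes were chosen for following a mean that is itself lower on plastic, so their own surface changes restate that choice: RELB had log2 changes of -1.20 (SE 0.16) in female and -0.96 (SE 0.16) in male cells, and PRDX2 had -0.66 (SE 0.11) and -0.44 (SE 0.11). All 5 were called lower in both sexes. The male calls of PRDX2, TRIM25 and SMO were lost without both surfaces of male 4, female 1 and female 4. Their adjusted p in edgeR was then 0.0575, 0.115 and 0.0621. The female call of SMO was lost as well (adjusted p = 0.077). TRIM25 also lost its male call in a fit of the male libraries alone (adjusted p = 0.0534). After each group's mean was subtracted, the closest genes were GRINA (r = 0.948), SCAP (0.938), RNPS1 (0.926), ACPT (0.923) and CDC42EP2 (0.919). Of these 5, SCAP, a sterol-sensing escort protein, was called for a surface change in female cells (-0.73, SE 0.20, adjusted p = 0.0123), and the other 4 were called in neither sex. These calls were not checked with libraries left out.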

How the data were processed

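Gene counts of 16 polyA RNA libraries were used. As deposited, the table gives raw, unnormalized counts for each gene. Per the submitters' processing notes, FastQC 0.11.5, Trimmomatic 0.36, HISAT2 2.1.0, SAMtools 1.3.1 and featureCounts were used with Sscrofa11.1; strand and multi-mapping settings are not given in the sources used here. Of 29576 entries, 24 with numbers for names, holding 0.169% of the counts, were dropped; the remaining 29552 are RefSeq symbols, whose coordinates on the same build are given. RefSeq spans give no transcript length, so levels are not compared between genes, and no sequences are shown.

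Genes were kept by filterByExpr by group (14530 of 22139 with a count). Group means were fitted with edgeR 4.0.16 in R 4.3.3 with TMM scaling (factors 0.896 to 1.12) over all 16 libraries, with 12 residual degrees of freedom, and the quasi-likelihood F test was adjusted by Benjamini-Hochberg over all tested genes. Changes are plastic over gel or female over male, as log2 with standard errors (SE); a call is an adjusted p under 0.05. Ratios of counts, with 0.5 added to each, and NLRC5 were compared by exact permutation tests (SciPy 1.17.1). The steps were tested on simulated data. The median biological coefficient of variation was 0.182. Intervals cover the spread between libraries, and floors of 3 counts cover counting error only. Libraries within a group differed by more than sampling noise (chi-square per degree of freedom 10.22 to 85.2 over 24 pairs). The study describes biological replicates but does not tie libraries to animals, so p-values measure the spread between these libraries.

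Within each sex, plastic and gel libraries of the same number deviated together (r = 0.126 to 0.489). In 8 of 8 pairs this r was above that with any gel library of another number, narrowly in male 2 (0.126 against 0.109). The numbers were therefore taken to pair the surfaces, from the sample titles and this check. The main fit of group means did not use this pairing, so its SEs, intervals and adjusted p are unpaired. The replicate block used it, as an alternative. Female and male libraries of the same number had r = -0.197 to 0.568, so the size of r alone does not mark a pair. The sexes were not taken as paired.

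The members, the gene lists, the tests and the rule for named genes were chosen with earlier results of these data known. Named were the 8 genes, SLA-1, SLA-2, SLA-3, IRF1, PSMB5, PSMB6, PSMB7, PSME1, PSME2, ERAP1 and CIITA whatever their result, up to 3 called genes per list, comparison and direction with the smallest p, and the 5 genes most like the tested members over 16 libraries and within groups; 1 further gene of the rule is not reported here. SLA-6, the second sex of genes called in 1 sex, the interferon genes and the markers were named after their values were seen. Alternatives were RLE scaling, DESeq2 1.42.0, limma-voom 3.58.1, no filter, a filter of 1 CPM in 4 libraries, the compared libraries alone, the replicate block, each library left out, and 2 sets of libraries left out.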

Additional observations from a re-analysis of the deposited data

Results flagged for a closer look

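Of 144 groups of 4 libraries examined for a library far from the other 3, 12 had one, where chance flags about 1 in 20. Male gel 2 accounted for 5 of them. Its level was 7.57 CPM for PSMB10, against 11.2 to 11.8 CPM in the other male gel libraries, 78.6 CPM for PSMB7, against 57.9 to 60.6 CPM, 19.9 CPM for SLA-6, against 32 to 34.3 CPM, and 18.6 CPM for NFYC, against 27.4 to 28.8 CPM. Its log2 ratio of PSMB10 to PSMB7 was -3.37, against -2.43 to -2.29. Male plastic 3 had 282 CPM of B2M, against 241 to 245 CPM in the other male plastic libraries, and 40.7 CPM of NFYC, against 33.3 to 34.2 CPM. Male plastic 1 had 0.193 CPM of IFIT3, against 0.0845 to 0.0888 CPM, and 0 CPM of NLRC5, against 0.175 to 0.211 CPM.

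In female cells, female plastic 3 had 0.308 CPM of NLRC5, against 0 to 0.0444 CPM in the other female plastic libraries, and female gel 3 had 0.136 CPM, against 0.315 to 0.326 CPM in the other female gel libraries. These NLRC5 and IFIT3 levels rest on a few counts each. Female gel 4 had 6.2 CPM of CIITA, against 8.27 to 8.65 CPM in the other female gel libraries.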

How the results depend on the processing

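Over 17 alternatives per sex, 4 to 7 class I genes were called lower on plastic in female and 4 to 6 in male cells, and 8 of their 11 calls were never lost. With the replicate block, which was each number within each sex, 4011 genes were called in female and 4319 in male cells and 0 for the difference. Between the sexes the block was the number alone, although the sexes were not taken as paired. There 18 and 14 genes were called on plastic and gel. Among named genes the replicate block changed the calls given in the report and no other. Without male 4, female 1 and female 4, 1968 genes were called in female cells, from fewer libraries. The 6 ratio calls were lost in sign flips of 4 pairs, which keep the values by construction (PSMB8/PSMB5 -0.56 female and -0.55 male, PSMB9/PSMB6 -1.74 and -1.09, PSMB10/PSMB7 -1.77 and -1.85), and whose smallest p is 0.125. With 1 library left out they ran from -0.62 to -0.50 and -0.64 to -0.48, -1.90 to -1.59 and -1.38 to -0.93, and -1.84 to -1.68 and -2.10 to -1.70 (adjusted p = 0.0571, the smallest possible). Several values that were not called changed sign, and the cause was not tested. Without male gel 2 and female plastic 4 these were male TAP1 (-0.0926), female over male TAPBP (0.0286) and PSMB8 (0.00707) on plastic and B2M (-0.0255) on gel, and the differences of change of B2M (0.0871) and TAP2 (0.143). Without male 4, female 1 and female 4 they were B2M (-0.0324) and PSMB10 (-0.202, from 0.17) on plastic, PSMB10 on gel (0.0244) and its difference (-0.226, from 0.24). With 1 library left out, the ranges were -0.0929 to 0.0932 for male TAP1 and -0.0997 to 0.0100 for female PSMB7. On plastic they were -0.0597 to 0.0695 for B2M, -0.164 to 0.00718 for PSMB8, -0.0302 to 0.214 for TAP2 and -0.0868 to 0.0524 for TAPBP. On gel they were -0.0402 to 0.107 for B2M and -0.197 to 0.00871 for PSMB10, and for the difference -0.0953 to 0.0525 for B2M and -0.298 to 0.0152 for TAP2. Spearman's rho of PRDX2 was 0.929. Depth limits NLRC5 and the interferon-stimulated genes under 1 CPM.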

Other observations

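Class II genes, which present peptides from outside the cell, were barely counted. Of 11 listed, 2 were tested and neither was called in either sex: CIITA, the class II activator related to NLRC5, with log2 changes of -0.21 (adjusted p = 0.351) in female and -0.21 (adjusted p = 0.312) in male cells, and the protease CTSS, with 0.11 (adjusted p = 0.712) and -0.05 (adjusted p = 0.885). The invariant chain CD74 averaged 0.188 CPM in female plastic, 0.256 CPM in female gel, 0.277 CPM in male plastic and 0.209 CPM in male gel libraries. The class II sum of 9.03 to 13.3 CPM in all groups was mostly CIITA and CTSS. Of the ligands seen by natural killer and T cells, CD274 and ULBP1 were tested and not called, with 0.44 and 0.49 in female and 0.10 and 0.53 in male cells (adjusted p = 0.211 to 0.816).

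The counts of the neighbours PSMB9 and TAP1 stood in different ratios on the 2 surfaces, a comparison chosen after the values were seen. The log2 ratio of PSMB9 to TAP1 counts averaged -5.00 ± 0.29 in female plastic and -3.47 ± 0.28 in female gel libraries (SD, n = 4), and -4.96 ± 0.20 in male plastic and -3.67 ± 0.42 in male gel libraries. The groups did not overlap, and the ratio was 2.89-fold lower on plastic in female and 2.45-fold lower in male cells (two-sided exact permutation p = 0.0286 each, adjusted p = 0.0381 over 4 ratios). TAP2 against TAP1 was 1.26-fold lower in female (exact permutation p = 0.0857) and 1.4-fold lower in male cells (exact permutation p = 0.0286, adjusted p = 0.0381). The surface changes of these genes were known when the ratios were chosen. The adjustment does not cover that choice, and the p-values restate those changes.

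After each group's mean was subtracted, TAP1 still varied with PSMB9 over the 16 libraries (r = 0.727), as did TAP2 (r = 0.755). TAP1 also varied with TAP2 (r = 0.656). It had r = 0.28 with TAPBP, 0.263 with B2M, 0.0484 with its other neighbour PSMB8 and 0.0145 with PSMB10. Male gel 2 was the lowest male gel library for TAP1, TAP2 and PSMB9, and its weight in these values was not tested. These correlations share libraries and depth and are a description. Over the 16 libraries without that subtraction, the closest pair was B2M and TAPBP (r = 0.945).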
